A study of Mus musculus with 2 samples.

Results

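The genes described here encode the laminin network of the basement membrane and the integrins that hold cells to it. They were 33 mouse genes chosen by symbol out of 43346 gene rows in the deposited tables. Of these, 14 encode matrix proteins (10 laminin chains, nidogen 1, nidogen 2, perlecan and agrin) and 19 encode integrin subunits (12 alpha and 7 beta). All 33 were found in both libraries. RNA of the whole heart was sequenced from B6NCrl mouse embryos at embryonic day 14.5, with no stated genetic change or treatment. The single group held 2 libraries, each labelled as 1 heart and also as a pool of male and female. They were collected on day 15 (replicate 1) and day 17 (replicate 2) of the same month, so embryo and collection day cannot be told apart. Each library started from 10 ng of RNA with spike-in RNAs added. There was no second tissue, age or treatment, so the comparisons possible were between genes, between transcripts of a gene and between the hearts.

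A laminin is a cross-shaped trimer of an alpha, a beta and a gamma chain. Laminins polymerise at the cell surface into a sheet, nidogens and perlecan tie that sheet to type IV collagen, and agrin and perlecan carry heparan sulfate chains. Integrins are receptors made of an alpha and a beta subunit that span the membrane and couple the matrix outside to actin inside. In the heart, basement membranes surround each cardiomyocyte and underlie the endothelium and the epicardium.

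The total expected count (reads assigned to a row, shared among the rows they fit) was 28537200 in replicate 1 and 28958800 in replicate 2, and the 33 genes held 0.421% and 0.405% of the counts on gene rows. A count of 1 on a 1 kb effective length was worth 0.0478 and 0.0475 TPM (a level per transcript length that sums to the same total in each library). The labels give each sample both as a single heart and as a pool of male and female, which conflict. In sex-linked genes the libraries stood apart. The Y-linked genes Ddx3y, Eif2s3y, Kdm5d and Uty lay between 12.7 and 57.5 TPM in replicate 1 and were listed at 0 in replicate 2, while Xist was at 0.04 and 37.7 TPM. In these genes replicate 1 had a male pattern and replicate 2 a female one, so sex, embryo and collection day cannot be told apart. The heart label fitted its markers: 8 of 8 cardiomyocyte markers were at 1 TPM or more in both libraries, with a summed level of 34845 and 34690 TPM. Markers of endothelium and endocardium (8 of 8, summed 300.4 and 292.3 TPM), epicardium (6 of 6, 148.0 and 169.6 TPM), fibroblasts and cushion mesenchyme (8 of 8, 1788 and 2083 TPM), smooth muscle and pericytes (6 of 7, 1279 and 1246 TPM) and macrophages (8 of 8, 197.3 and 173.7 TPM) were also present. Most of the smooth muscle sum was Acta2 (1062 and 1003 TPM), and the marker not detected was Myh11 (0.43 and 1.39 TPM). In such bulk tissue, fewer cells of a type and less RNA per cell cannot be told apart. Erythroid markers summed to 58898 TPM in replicate 1 and 32892 in replicate 2. Markers of megakaryocytes and platelets (4 of 7, 38.4 and 38.7 TPM), neurons and Schwann cells (3 of 7, 6.46 and 14.1 TPM), skeletal muscle (3 of 6, 31.2 and 41.6 TPM, Myod1 at 0 in both) and epithelium (2 of 6, 20.1 and 28.5 TPM, Sftpc at 0 in both) were low.

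At a level of at least 1 TPM in both hearts, 25 of the 33 genes were detected and 8 were below. Over all protein-coding gene rows the same rule called 12202 of 21474, or 56.8%. The median level of the 33 genes was 11.7 ± 0.43 TPM (SD of the medians of the 2 libraries, n = 2), against 3.26 ± 0.17 TPM over protein-coding rows. In both libraries 11 of the 33 were at 50 TPM or more: Itgb1, Lama4, Lamc1, Itga6, Lamb1, Itgb5, Nid2, Nid1, Itga5, Itgav and Hspg2. Of the 32 neighbours in the order of mean level, 11 pairs had overlapping values. With 2 libraries an exact permutation test of 2 values against 2 cannot go below a two-sided p of 0.333, so the comparisons of levels below give the SD and whether the values overlap, and no p.

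**Figure D1:**
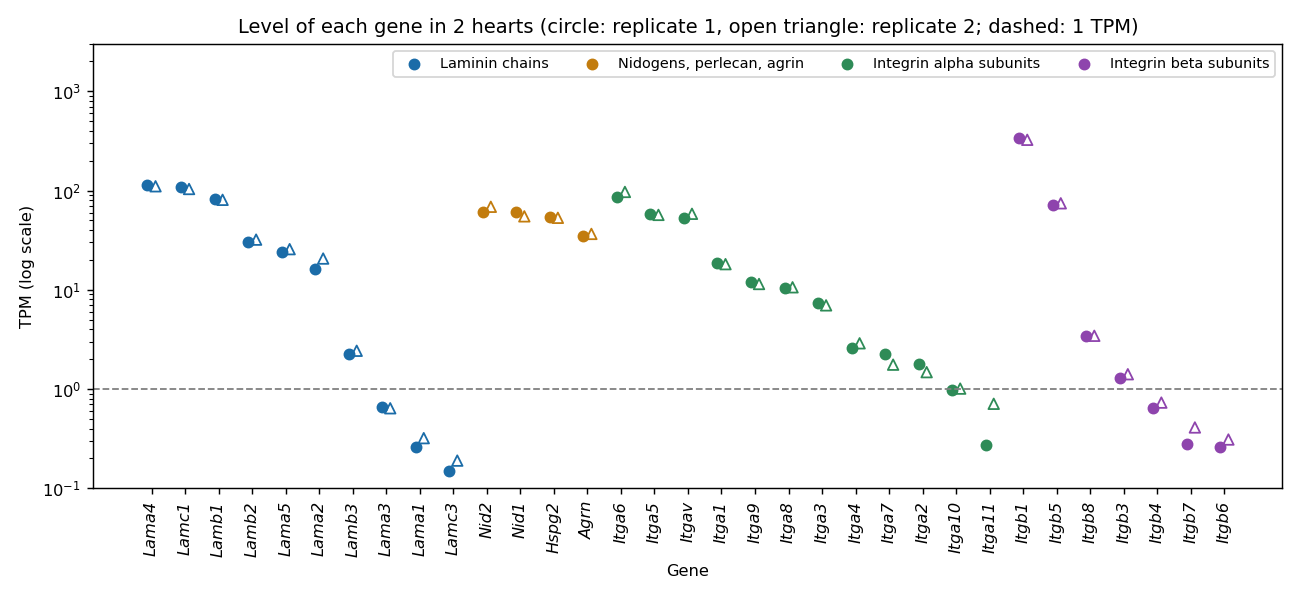
Level of each of the 33 genes (TPM, log axis) in replicate 1 (filled circles) and replicate 2 (open triangles), with genes ordered by mean level within laminin chains, linker proteins, integrin alpha and integrin beta subunits. Lama4, Lamc1 and Lamb1 lead the laminins, Itgb1 is above every other gene at 339 and 325 TPM, and 8 genes have a value below the dashed line at 1 TPM.

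Among the 5 laminin alpha chains, which carry the receptor-binding domains, Lama4 was the highest. Lama4, the chain known from vessels and embryonic heart (GRCm38 chromosome 10, 38965515 to 39110188, plus strand), was at 113.5 TPM in replicate 1 and 110.5 TPM in replicate 2. Lama5, the broadly expressed alpha chain of many basement membranes, was at 24.1 and 25.7 TPM. Lama2, the alpha chain of the muscle fibre basement membrane (chromosome 10, 26980036 to 27619758, minus strand), was at 16.4 and 20.7 TPM. By gene TPM the order of these 3 chains was the same in both hearts and their values did not overlap. On near-full-length coding transcripts only, a scale defined with the transcripts below, Lama4 stayed the highest but Lama2 (8.07 and 8.75 TPM) lay above Lama5 (7.03 and 6.88 TPM), again without overlap. Lama4 exceeded Lama2 by 6.09-fold (log2 ratio of Lama2 to Lama4 -2.61 ± 0.26, SD, n = 2) and Lama5 by 4.50-fold (log2 ratio of Lama5 to Lama4 -2.17 ± 0.09, n = 2). On the near-full-length scale these were 8.81-fold and 10.6-fold. Lama3, the chain of skin laminin, was at 0.66 and 0.64 TPM from 104 and 111 counts. Lama1, the chain of the earliest embryonic basement membranes, was at 0.26 and 0.32 TPM from 51 and 63 counts. Both low chains were therefore detected as reads in each heart while lying under 1 TPM, with Lama3 38.3-fold below Lama5 and Lama1 63.8-fold below Lama2 by gene TPM, and 22.3-fold and 29.1-fold on near-full-length transcripts.

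The beta and gamma chains were each led by 1 gene. Lamb1 (chromosome 12, 31265234 to 31329644, plus strand) was at 82.9 and 80.7 TPM. Lamb2, the beta chain found at the neuromuscular synapse and in the kidney filter, was at 30.2 and 32.0 TPM. Lamb3, the partner of Lama3 in skin laminin, was at 2.25 and 2.43 TPM. Lamb1 exceeded Lamb2 by 2.63-fold (log2 ratio 1.39 ± 0.09, n = 2), Lamb3 lay 13.3-fold below Lamb2, and none of these values overlapped. Lamc1, the common gamma chain (chromosome 1, 153218922 to 153332786, minus strand), was at 108.4 and 103.7 TPM. Lamc3 was at 0.15 and 0.19 TPM from 18.7 and 23 counts, a ratio to Lamc1 of 628-fold (log2 ratio 9.29 ± 0.29, n = 2). Few reads lay on Lamc3, and this ratio moved with the estimate. Its log2 was 8.46 on near-full-length transcripts, where Lamc1 fell to 59.3 TPM and Lamc3 stayed at 0.17 TPM. By posterior mean TPM it was 7.92. Lamc1 was above Lamb1 by gene TPM (log2 ratio 0.37 ± 0.02, n = 2), but below it when only near-full-length coding transcripts were summed (log2 ratio -0.24).

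The 4 linker genes were all detected, between 34.5 and 68.6 TPM. Nid2 was at 61.5 TPM in replicate 1 and 68.6 TPM in replicate 2. Nid1 was at 61.2 and 55.0 TPM. These rod-like proteins bind the laminin gamma 1 chain, and the lower value of Nid2 lay just above the higher value of Nid1, with a log2 ratio of Nid1 to Nid2 of -0.16 ± 0.22 (n = 2), smaller than its SD. Hspg2, which encodes the large proteoglycan perlecan, was at 54.0 and 53.1 TPM. Agrn, which encodes agrin, the proteoglycan that clusters acetylcholine receptors at the nerve-muscle synapse and binds dystroglycan, was at 34.5 and 36.6 TPM. Hspg2 exceeded Agrn by 1.51-fold (log2 ratio 0.59 ± 0.08, n = 2) without overlap, and the log2 ratio was 1.82 on near-full-length transcripts.

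Among the laminin-binding alpha subunits, Itga6 was far above Itga3 and Itga7. Itga6 (chromosome 2, 71745616 to 71858416, plus strand) was at 86.2 TPM in replicate 1 and 96.9 TPM in replicate 2. Itga3 (chromosome 11, 95044474 to 95076801, minus strand) was at 7.32 and 6.97 TPM. Itga7, known as the main laminin receptor of mature muscle, was at 2.25 and 1.76 TPM from 184 and 145 counts. Both Itga6 values lay above every value of the others. Itga6 exceeded Itga3 by 12.8-fold (log2 ratio 3.68 ± 0.17, n = 2) and Itga7 by 45.9-fold (log2 ratio 5.52 ± 0.37, n = 2). On near-full-length transcripts these were 5.32-fold and 18.2-fold.

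Itga6 and Itga3 each have a pair of known cytoplasmic tails, A and B, made by including or skipping 1 exon near the end of the coding sequence. The tail coding sequences are shown because reads were assigned to transcripts that include and that skip the exon. For Itga6 nearly all of the skipping level was assigned to a transcript without a coding sequence, given below. The tail is also the part of the receptor that meets the adaptors listed further on. Each runs 5′ to 3′ from the membrane-proximal GFFKR position, whose 5 codons are in capitals, to the stop codon, and was read from GENCODE M21 transcripts on GRCm38. The first of each pair includes the exon and the second skips it.
Itga6-201: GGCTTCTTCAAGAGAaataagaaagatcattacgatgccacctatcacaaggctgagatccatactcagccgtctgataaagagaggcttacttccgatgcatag
Itga6-202: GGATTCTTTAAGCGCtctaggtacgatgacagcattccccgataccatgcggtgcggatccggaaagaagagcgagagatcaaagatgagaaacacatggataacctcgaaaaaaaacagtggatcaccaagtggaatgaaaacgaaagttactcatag
Itga3-201: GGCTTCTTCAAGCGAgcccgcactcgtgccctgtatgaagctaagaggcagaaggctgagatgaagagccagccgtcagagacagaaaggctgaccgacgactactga
Itga3-203: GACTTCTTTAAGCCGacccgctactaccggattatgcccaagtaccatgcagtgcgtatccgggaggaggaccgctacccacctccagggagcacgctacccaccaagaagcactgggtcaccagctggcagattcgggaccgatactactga
The tails of the including transcripts have 34 codons (Itga6-201) and 35 codons (Itga3-201), and those of the skipping transcripts 52 (Itga6-202) and 50 (Itga3-203). The capitals code for GFFKR in Itga6-201, Itga6-202 and Itga3-201 and not in Itga3-203.

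The alternative exon of Itga6 is 130 nt long (GRCm38 chromosome 2, 71853534 to 71853663). Transcripts with it held 50.7% and 51.5% of the TPM of the transcripts that either include or skip it, a mean of 51.1% ± 0.57 (SD, n = 2), and 62.6% by counts. The including form was Itga6-201, at 34.6 and 37.5 TPM. The skipping coding transcript Itga6-202, whose tail is printed above, was at 0.45 TPM from 38.3 counts in replicate 1 and was listed at 0 in replicate 2, and nearly all of the skipping level came from Itga6-203, a processed transcript without a coding sequence, at 33.2 and 35.4 TPM. Itga6-203 is 2721 nt long, of which its last exon takes 2563 nt and reaches 1645 nt beyond the last exon of Itga6-202. The share of the skipping tail in Itga6 therefore rests on a transcript that is mostly last exon. Whether its reads crossed the skipped junction or came from the coding form was not tested. The 51.1% is thus not a measured ratio of the A and B tails. In Itga3 the exon is 142 nt long (chromosome 11, 95046449 to 95046590). Its inclusion was 73.4% in replicate 1 and 80.9% in replicate 2 by TPM, a mean of 77.1% ± 5.33 (n = 2), and 77.7% by counts. Itga3-201 was at 4.54 and 5.10 TPM and the skipping Itga3-203 at 1.89 and 1.25 TPM, both coding transcripts near full length, so in both hearts the including form was the higher.

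The collagen-binding alpha subunits were led by Itga1, at 18.8 and 18.1 TPM. Itga2, which pairs with the same beta 1 subunit, was at 1.77 and 1.48 TPM. Itga1 exceeded Itga2 by 11.4-fold (log2 ratio 3.51 ± 0.15, n = 2) without overlap. Itga10, the collagen receptor known from cartilage, was at 0.98 and 1.01 TPM, on either side of the detection level. In GENCODE M21 a protein-coding gene model on the same strand, Gm42957, covers 33.5% of the exon bases of Itga10. The counts rest on release M4, whose overlaps were not checked, so how the reads of Itga10 were divided is uncertain. Itga11, a collagen receptor of fibroblasts, was at 0.27 TPM in replicate 1 and 0.71 TPM in replicate 2 from 28 and 73 counts.

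Of the 3 alpha subunits that bind the RGD sequence of fibronectin and related proteins, Itga5 and Itgav were above 50 TPM in both hearts and Itga8 was lower. Itga5, the fibronectin receptor (chromosome 15, 103344286 to 103366763, minus strand), was at 57.5 and 56.9 TPM. Itgav, which pairs with several beta subunits (chromosome 2, 83724397 to 83806916, plus strand), was at 52.3 and 58.3 TPM. This was the only pair of 20 compared whose values overlapped, with Itga5 higher in replicate 1 and Itgav higher in replicate 2 (log2 ratio 0.05 ± 0.12, n = 2). On near-full-length transcripts, however, the log2 ratio of Itga5 to Itgav was 1.81. Itga8, the receptor for nephronectin, was at 10.5 and 10.6 TPM, 5.23-fold below Itgav (log2 ratio -2.39 ± 0.10, n = 2) by gene TPM, and the log2 ratio was -0.74 on near-full-length transcripts. Of the related alpha 4 and alpha 9 subunits, which bind VCAM1 and other ligands, Itga9 was at 12.1 and 11.4 TPM. Itga4, a gene needed for attachment of the epicardium, was at 2.57 and 2.89 TPM, and Itga9 exceeded it by 4.31-fold (log2 ratio 2.11 ± 0.17, n = 2), or 6.77-fold on near-full-length transcripts.

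Itgb1 was the highest of all 33 genes. Itgb1, the shared partner of most alpha subunits here (chromosome 8, 128685654 to 128733200, plus strand), was at 338.6 TPM in replicate 1 and 324.8 TPM in replicate 2, from 25255 and 24570 counts. Itgb5, a partner of the alpha v subunit, was at 70.8 and 74.4 TPM, 4.57-fold below Itgb1 (log2 ratio of Itgb1 to Itgb5 2.19 ± 0.09, n = 2). Itgb8, an alpha v partner that binds latent TGF-beta, was at 3.46 and 3.44 TPM. Itgb3, the alpha v partner also found on platelets, was at 1.30 and 1.41 TPM, 53.6-fold below Itgb5, and the platelet alpha subunit gene Itga2b, which was not among the 33, was at 5.36 and 5.26 TPM. Thus 4 beta subunits were detected and their order was Itgb1, Itgb5, Itgb8 and Itgb3 in both hearts, with no overlap. Itgb4, the hemidesmosome partner of the alpha 6 subunit, was at 0.65 and 0.73 TPM from 78 and 87.9 counts, 132.6-fold below Itga6 by gene TPM and 52.3-fold on near-full-length transcripts. Itgb7, known from lymphocytes, was at 0.28 and 0.41 TPM, and Itgb6, known from epithelia, was at 0.26 and 0.31 TPM. Those 2 genes had 11 to 22 counts per library, so only a large difference between the hearts could have been seen at this depth.

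Summed by chain class, the levels of the partners could be set side by side. Laminin alpha chains summed to 156.3 ± 2.02 TPM (SD, n = 2), beta chains to 115.2 ± 0.16 TPM and gamma chains to 106.2 ± 3.27 TPM. Lama4 made up 71.7% of the alpha sum, Lamb1 71.0% of the beta sum and Lamc1 99.8% of the gamma sum. The gamma sum held Lamc1 and Lamc3 only. All sums here cover only the chains and subunits among the 33 genes, so they need not cover a whole class. Integrin alpha subunits summed to 259.8 ± 10.2 TPM, of which Itga6 was 35.2%, and integrin beta subunits to 410.4 ± 6.99 TPM, of which Itgb1 was 80.8%. The beta sum of the integrins was above their alpha sum in both hearts. On near-full-length coding transcripts the laminin sums were 90.03 TPM for alpha, 94.0 TPM for beta and 59.5 TPM for gamma, so alpha was no longer above beta. The alpha values (91.3 and 88.7 TPM) and the beta values (97.4 and 90.6 TPM) overlapped there. Itga6 made up 22.5% of the integrin alpha sum on that scale.

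**Figure D2:**
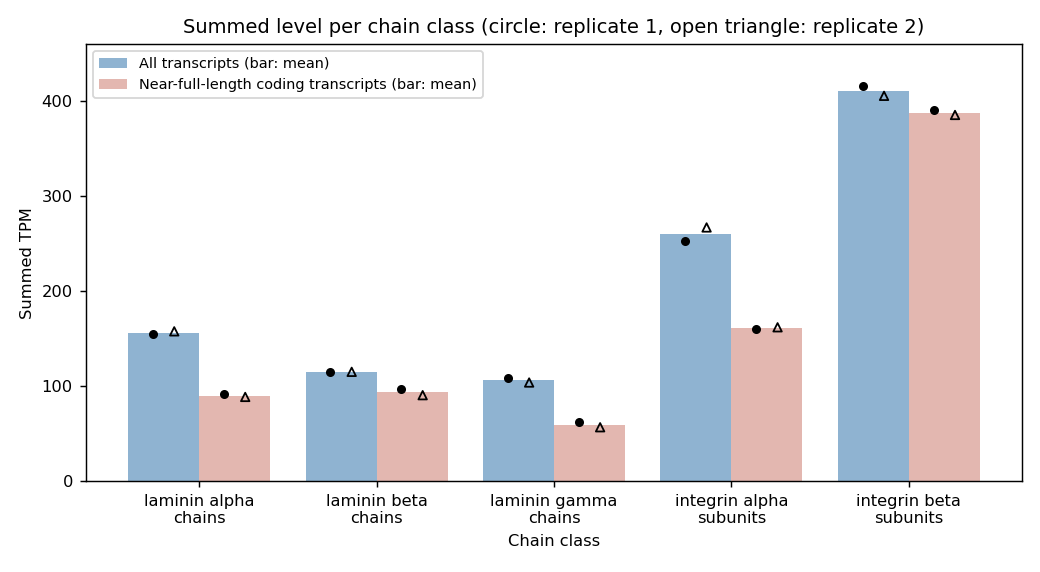
Summed TPM, over the 33 genes only, of the laminin alpha, beta and gamma chains and of the integrin alpha and beta subunits. Bars are means over 2 libraries, circles replicate 1 and open triangles replicate 2. Both scales are shown, all transcripts of each gene and near-full-length coding transcripts only. Integrin beta subunits have the highest sum on both scales (410.4 and 387.9 TPM). Mean laminin alpha is above beta for all transcripts and below it for near-full-length transcripts, where their values overlap. Laminin gamma is the lowest on both scales.

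The level of a gene is the sum over its annotated transcripts, and short transcripts weigh heavily in TPM because each read on them counts for more. A transcript was called near full length when it was annotated as coding and its coding sequence was at least 80% of the longest one of the gene. Of the 33 genes, 7 had 1 annotated transcript (among them Nid1, Nid2, Itga1, Itga5 and Itga7) and 26 had more. Of the 19 genes with more than 1 transcript and a mean of at least 1 TPM, 17 had the same leading transcript in both hearts by TPM and 18 by counts. For 3 of them the leader by TPM was not near full length. In Itgav the leader was Itgav-205, a 463 nt transcript annotated as coding, with 63.0% of the TPM and 9.88% of the counts. In Agrn the leader was Agrn-205, a 2071 nt retained-intron transcript, with 64.7% of the TPM and 34.6% of the counts. In Lama5 the leader by mean TPM was Lama5-204, a 478 nt processed transcript, with 30.0% of the TPM and 3.27% of the counts. It led in replicate 2 only (27.5% and 32.5%), while the full-length coding Lama5-201 led in replicate 1 (29.2% and 26.8%). By counts the leader was near full length in all 19.

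Taking near-full-length transcripts alone moved some genes and left others. Itgb1, led by Itgb1-201 with 95.5% of its TPM, went from 332 to 317 TPM and stayed the highest. Itgb5, led by Itgb5-202 with 87.2%, went from 72.6 to 66.4 TPM, and Lamb1, led by Lamb1-201 with 85.3%, from 81.8 to 70.3 TPM. Lama4, led by Lama4-201 with 66.1%, went from 112.0 to 74.1 TPM, and Lamc1, led by Lamc1-201 with 55.9%, from 106.0 to 59.3 TPM. Itga6, led by Itga6-201 with 39.5%, went from 91.5 to 36.3 TPM and from the fourth to the tenth place. The largest ratios of the gene level to the near-full-length level were in Lama5 (24.9 to 6.96 TPM), Itgav (55.3 to 16.3 TPM) and Agrn (35.5 to 11.6 TPM), all above 3-fold. Itga3 kept most of its level on such transcripts (7.15 to 6.83 TPM), led by Itga3-201 with 67.7%. For Itgb4, at 0.69 TPM, Itgb4-204 had 62.1% in replicate 1 and 15.1% in replicate 2, so no leader could be named at that depth. On this scale 25 of the 33 genes were still at 1 TPM or more in both hearts, and near-full-length transcripts held under 50% of the TPM in 5 of the 19 genes compared (Itga6, Itgav, Agrn, Lama2 and Lama5).

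**Figure D3:**
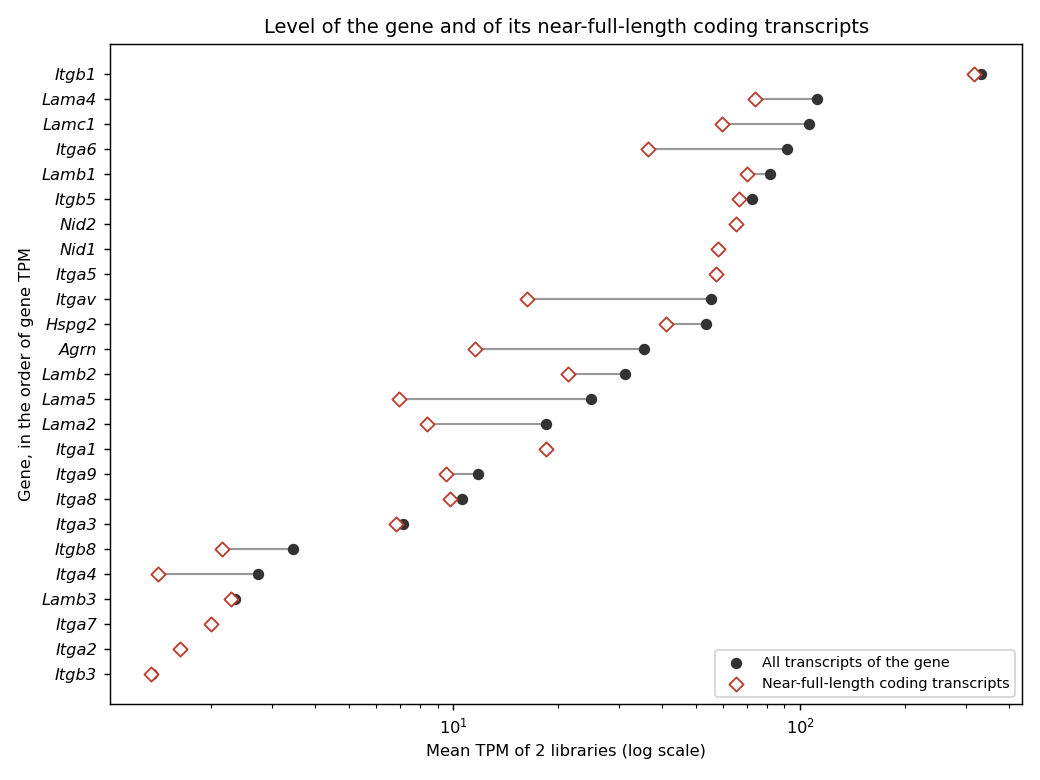
Mean TPM over 2 libraries (log axis) of the 25 genes above 1 TPM, for all transcripts of the gene (filled circles) and for near-full-length coding transcripts (open diamonds). The points fall together for genes such as Nid1, Nid2 and Itga5 and lie apart for Lama5, Itgav, Agrn and Itga6.

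Some of the genes share exon bases with another gene annotated in GENCODE M21. This held for 12 of the 33, in 10 of them on the opposite strand. The counts rest on release M4, whose overlaps were not checked, and the use of strand in the counting is not given in the sources used here. Nid2 shares 8.45% of its exon bases with Rtraf on the opposite strand, Itga4 shares 8.04% with Cerkl and Itgb4 shares 7.66% with B230344G16Rik. Reads of such partners may not be separable, and their part in the levels was not tested.

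The hearts differed little in these genes. The difference is the log2 of replicate 2 over replicate 1 from TMM-scaled counts, with an exact (Clopper-Pearson) 95% interval that covers counting error only, since each heart gave 1 library. Of the 27 genes whose counts averaged 100 or more, 0 were 1.5-fold or more apart, where 230 of 11958 gene rows, or 1.92%, were. At 2-fold or more the count over all gene rows was 51, or 0.426%. Of the 18 genes whose counts averaged 1000 or more, 0 passed 1.5-fold, against 32 of 5717 gene rows, or 0.56%. A share this close to the background is no result about these genes. The median size of the difference was 0.09 on the log2 scale, against 0.10 over all gene rows.

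Within that limit, the counting interval excluded 0 for 12 of the 27 genes, and for 37.4% of the 11958 gene rows. Such an exclusion was common over all gene rows and leaves out the spread between hearts. It is therefore no result about a single gene. Of the 12, 8 kept their direction under all 5 scalings tried, and 4 (Itgb1, Lama4, Itga5 and Itga1, all lower in replicate 2 with TMM) did not. The eighth to keep it was Itgav (log2 0.09, interval 0.01 to 0.17), and the others follow. Hspg2 was at 12973 counts in replicate 1 and 11558 in replicate 2 (log2 -0.22, interval -0.26 to -0.19). Nid1 had 7611 and 6878 counts (log2 -0.20, interval -0.25 to -0.16), while Nid2 had 6155 and 6906 (log2 0.11, interval 0.06 to 0.16). In these 2 libraries the nidogens lay in opposite directions, and the size for Nid2 was close to the median of 0.10 over all gene rows. Lamb1 (log2 -0.18, interval -0.22 to -0.13) and Lamc1 (log2 -0.16, interval -0.20 to -0.12) were both lower in replicate 2, and Lama2 was higher there, with 1879 and 2181 counts (log2 0.16, interval 0.07 to 0.25). Itga7 had the largest difference among the 27 genes, 1.32-fold lower in replicate 2 (log2 -0.40, interval -0.73 to -0.08). The sizes depended on the scaling. By TPM and by spike-in counts the log2 difference was -0.02 and -0.11 for Hspg2, -0.15 and -0.09 for Nid1, -0.04 and -0.06 for Lamb1, and -0.06 and -0.05 for Lamc1. It was 0.16 and 0.22 for Nid2, and 0.33 and 0.27 for Lama2. Of all 27 genes, 16 were higher in replicate 1 with TMM (59.3%, against 51.9% of gene rows), 14 with TPM (51.9% against 38.2%) and 7 with spike-in counts (25.9% against 22.3%). Spike-in scaling shifted the median of all genes by 0.11 on the log2 scale. Itga11, singled out after its values were seen, was 2.48-fold higher in replicate 2 (log2 1.31, interval 0.68 to 2.01), with a mean count of 50.5 that is below the minimum of 100. Fibroblast and cushion mesenchyme markers were higher in replicate 2 for 7 of 8 genes by TPM and erythroid markers lower for 7 of 7, and the part of either in these differences was not tested.

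**Figure D4:**
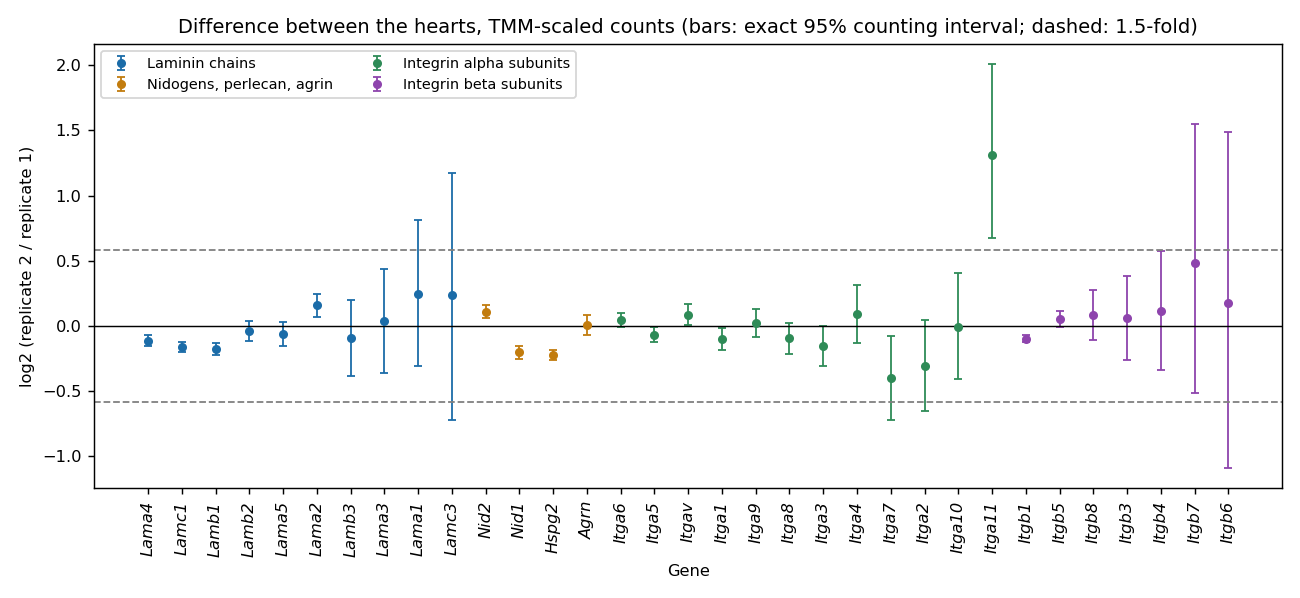
Log2 of replicate 2 over replicate 1 for each of the 33 genes from TMM-scaled counts, with exact 95% counting intervals as bars and dashed lines at 1.5-fold. Itga11 is the only point beyond a dashed line, at 1.31, and the widest intervals belong to Itgb6, Itgb7 and Lamc3.

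**Figure D5:**
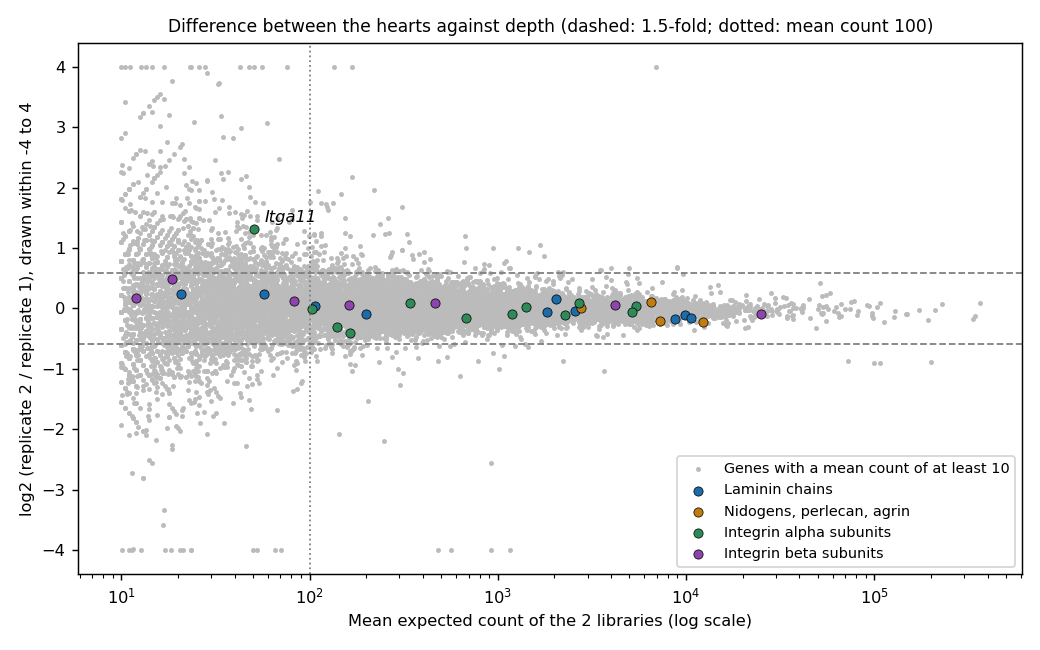
Log2 difference between the hearts against mean expected count (log axis) for all gene rows whose counts averaged 10 or more (grey, drawn within -4 to 4) and the 33 genes (coloured by class), with dashed lines at 1.5-fold and a dotted line at a mean count of 100. All 27 coloured points right of the dotted line lie between the dashed lines, within the grey cloud.

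Of 8 basement membrane collagen genes, 6 were detected, with a median level of 22.2 TPM. Beside this list and those that follow, 56.8% of protein-coding rows were detected. Of gene rows with counts averaging 100 or more, 1.92% were past 1.5-fold. Col4a1 and Col4a2, the chains of the main type IV collagen network, were at 173.3 and 166.3 TPM and at 62.8 and 60.5 TPM in replicates 1 and 2. Col18a1, whose product is the source of endostatin, was at 72.6 and 78.1 TPM. Among the collagen genes, 1 of the 6 with enough counts was past 1.5-fold, Col15a1, at 9.46 and 6.27 TPM (1.54-fold lower in replicate 2). It was named after its values were seen.

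All 6 laminin receptors that are not integrins were detected, with a median level of 32.1 TPM. Bcam, a receptor for the laminin alpha 5 chain, was at 228.8 and 250.0 TPM. Dag1, which encodes dystroglycan, was at 109.98 and 112.7 TPM, and the syndecan gene Sdc2 at 33.2 and 38.0 TPM. With TMM all 6 were higher in replicate 2, by a median of 0.12 on the log2 scale, where 48.1% of gene rows were, and 0 passed 1.5-fold. The interval of the fold included 1 for Dag1 (0.977 to 1.03) and Sdc3 (0.991 to 1.16). Of 10 other integrin ligands, 8 were detected, with a median of 18.0 TPM. Mfge8, a ligand of alpha v integrins, was at 203.98 and 200.2 TPM, Fn1, which encodes fibronectin, at 162.8 and 183.8 TPM, and Vcam1, the alpha 4 ligand, at 59.9 and 55.1 TPM. Spp1, which encodes osteopontin, stood apart at 56.6 TPM in replicate 1 and 9.97 TPM in replicate 2, from 1555 and 275 counts, 5.88-fold lower in replicate 2 (log2 -2.55). It was the 1 ligand past 1.5-fold. By TPM, 7 of 8 macrophage markers were also lower in replicate 2. With TMM 2 of them were past 2-fold, Gpnmb (5.25 and 1.18 TPM) and Lgals3 (15.6 and 5.84 TPM). The other markers were within 1.5-fold, and C1qa was higher in replicate 2 (18.1 and 20.6 TPM). The part of these markers in the Spp1 difference was not tested.

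Of 18 genes for proteins that link integrin tails to actin and to signalling, 16 were detected, their median was 31.5 TPM, and 0 of the 16 passed 1.5-fold. Ilk, the pseudokinase that binds beta subunit tails, was at 346.1 and 342.5 TPM, close to the level of Itgb1. Fermt2, which encodes the integrin activator kindlin-2, was at 157.8 and 157.0 TPM, and Lims1, which encodes the Ilk partner PINCH1, at 148.0 and 136.8 TPM. The 5 leukocyte integrin subunits Itgal, Itgam, Itgax, Itgae and Itgb2, which were not among the 33, summed to 4.54 and 2.78 TPM. Each was lower in replicate 2 by TPM, as were 6421 of 16387 gene rows with counts averaging 10 or more. Their counts averaged from 13 (Itgax) to 97.5 (Itgal), all below the count minimum used for differences between the hearts. The counting interval of the fold was widest upward for Itgae, at 0.263 to 1.18. The part of leukocyte content in these levels was not tested.

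Promoters were looked at for what the genes share beyond their annotation. RefSeq windows on GRCm38.p6 that run from before to just after the start site, 300 bases in all, were matched by symbol for 23 of the 33 genes. The GC box, searched as GGGCGG and on the other strand as CCGCCC, was in 13 of the 23, or 56.5%, against 38.2% of 27025 symbols with a window. All 13 were among the 19 matched genes detected at 1 TPM or more in both hearts (68.4%), and 0 of the other 4 had it. Over all genes with a window the box was in 69.7% of those detected and 24.0% of those not detected, so the share in the detected genes here was near the background. The highest number of CpG dinucleotides in a window of a gene had a median of 13 over the 23 genes and 8 over all symbols. It was 18 over the 19 detected genes and 9 over the other 4. All symbols were not split by detection for this number, so it has no matched background. These are descriptions of letters in a window, and binding was not measured.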

How the data were processed

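Gene and transcript tables of 2 total RNA libraries of the E14.5 heart were used, 1 group with replicate numbers from the labels. The expected counts are estimated counts per row, not scaled by depth, as deposited. The TPM values and the FPKM values (the latter used only as an alternative) were computed by the authors. The isoform percent column was deposited by the authors as well. The tables use mm10 with GENCODE M4, per the deposited file listings. Which aligner and quantifier were run, and whether strand was used, is not given in the sources used here. Symbols, positions and transcript types were taken from GENCODE M21 (also GRCm38), which gave a symbol to 42462 of 43346 gene rows.

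Counts were rounded and scaled with TMM (edgeR 4.0.16, R 4.3.3), and the log2 difference used a prior count of 0.5. Intervals are Clopper-Pearson at 95% and cover counting error only. The fold and interval steps were run on simulated counts that held counting error only and were scaled by library totals. That run did not cover TMM or the spread between hearts. The spread between libraries holds embryo, sex by the Y-linked genes and Xist, collection day and technical noise together. Levels are TPM means with SD over 2 libraries. Other alternatives were DESeq2 1.42.0 size factors, total and spike-in counts, other filters and each library alone. Near-full-length transcripts and reads per kb were added after seeing the data. Every member is given with its values; of each pathway list, the 3 highest by mean TPM and any that differ 2-fold or more between hearts, with counts averaging 100 or more, are named. The members and lists were chosen with earlier results of these data known. Of the lists, 165 of 165 genes were matched, and 1 of the listed genes is not reported here.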

Additional observations from a re-analysis of the deposited data

How the results depend on the processing

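No paired analysis was possible because there is 1 group. The median level of the 33 genes, 11.7 TPM, was 8.58 in FPKM, 12.5 as posterior mean TPM, 12.7 with TPM rescaled over gene rows, 8.41 on near-full-length transcripts and 11.4 to 12.1 with either library alone. The ratio of Lamc1 to Lamb1 reversed on near-full-length transcripts (log2 -0.24), and of the other pair ratios 62 stayed within 1 SD and 37 moved, 15 of these on near-full-length transcripts and 11 with a pseudocount of 1. Values without a library are left out of that count, since with 2 libraries they cannot move by 1 SD. On near-full-length transcripts the sums were 90.03 (laminin alpha), 94.0 (beta), 59.5 (gamma), 161.0 (integrin alpha) and 387.9 TPM (integrin beta). With either library alone they were 154.9 to 157.7, 115.1 to 115.4, 103.9 to 108.5, 252.6 to 267.0 and 405.5 to 415.4 TPM, and 25 to 26 genes were detected. The count of the 33 genes at least 1.5-fold apart was 1 at a mean count of at least 10 and 1 with no minimum (Itga11 in both cases). Over all gene rows that count was 230, and 1687 at a minimum of 10, 54 at 500 and 7253 with none. The leader was not near full length in 0 genes by counts and in 2 to 3 with either library alone. The median of all gene rows was 0.05 TPM and 9.74 TPM at a mean count of at least 10. Of the 33 differences of single genes, 17 left their counting interval with spike-in counts, 12 with TPM, 1 with total counts and 0 with DESeq2 size factors. The cause was not tested. Depth limits the 6 genes with a mean count under 100.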
